A study of Mus musculus with 4 samples.

Results

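The cells described here are embryonic mouse Purkinje cells with transcripts of Nefl, Nefm, Cntn5, Vstm2l or Brinp3, called Nefl/Cntn5 cells. They were chosen by their own UMI counts (unique molecular identifiers, each standing for 1 captured transcript). A barcode had to hold 500 or more genes, no more than 10% of UMIs from mitochondrial genes, at least 2 UMIs of Foxp2, Calb1 and Skor2 together, no Pax2 UMI, at least 2 UMIs of the 5 subtype genes together, and no fewer of these than of Nrgn, Islr2, Adcyap1 and Nrp2. Of 24856 barcodes that passed the cell filter, out of 35313 deposited, 198 met this rule. They came from 4 libraries of tdTomato-positive cells sorted from E15.5 cerebella. Both control libraries carried Ptf1aCre/+ and R26LSL-tdT/+. Both En1/2 CKO libraries (called CKO below) carried the same Cre and reporter alleles together with En1lox/lox and En2lox/lox. Embryos were pooled for each library, in a number that the labels do not give, so the spread between libraries is a spread between pools. Cre was driven by Ptf1a in every group, which leaves Engrailed genes intact in cells outside that lineage.

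Purkinje cells are the GABAergic output neurons of the cerebellar cortex. They arise from Ptf1a-expressing progenitors of the ventricular zone and, before birth, settle in clusters that differ in molecular makeup and position. Foxp2, Skor2, Lhx1 and Rora are transcriptional regulators of the young Purkinje cell, Calb1 encodes the calcium buffer calbindin, and Car8 encodes a carbonic anhydrase-related protein that binds the inositol trisphosphate receptor. Nefl and Nefm encode neurofilament subunits of the axonal skeleton, Cntn5 an adhesion molecule of the contactin family, and Brinp3 a secreted or membrane-bound protein of the BRINP family. En1 and En2 encode the Engrailed homeodomain factors, which pattern the midbrain and hindbrain and are also expressed in subsets of Purkinje cells.

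The libraries differed in quality. Control 2 stood apart, with 25.5% of its barcodes passing the cell filter against 63.9% to 94.6% in the others, and a median mitochondrial share over all barcodes of 13.4% against 3.15% to 5.88%. The total UMI count ran from 5305154 in control 2 to 21021428 in CKO 2. Nefl/Cntn5 cells numbered 84 in control 1, 13 in control 2, 43 in CKO 1 and 58 in CKO 2. Their summed UMIs, on which every level below rests, were 160726 and 45137 in control 1 and 2 and 115404 and 224618 in CKO 1 and 2. Levels are given as CPM, the UMIs of a gene divided by all UMIs of these cells in that library and scaled to the usual CPM total. A level of 0 allows up to 18.7, 66.5, 26.0 and 13.4 CPM in control 1, control 2, CKO 1 and CKO 2 (3 UMIs per library, counting error only). A few deep cells carried much of these sums: the 5 deepest held 18.4% of the UMIs in control 1, 56.7% in control 2, 36.5% in CKO 1 and 35.1% in CKO 2. No barcode of a Nefl/Cntn5 cell occurred in more than 1 library. In 15 of the 198 cells, markers of another cell type reached set cut-offs (microglial, cell cycle, oligodendrocyte lineage or progenitor genes). These 15 cells, 3 and 1 in the controls and 4 and 7 in CKO, were singled out after the values had been seen. Because the cut-offs count UMIs, deep cells reach them more easily, and leaving these cells out also removes deep members. Their median depth was 7911 and 9643 UMIs in control 1 and 2 and 8907.5 and 8187 UMIs in CKO 1 and 2. In the remaining cells it was 1565 and 3015.5 UMIs in the controls and 1394 and 1737 UMIs in CKO. Scrublet, a doublet caller, marked 6 of the 15. The 15 cells held 12%, 21.4%, 28.1% and 37.5% of the UMIs in control 1, control 2, CKO 1 and CKO 2, so the results below are also given without them where that matters. The cells then left are not free of such markers. At least 1 UMI of 6 radial progenitor genes was found in 84.5% and 92.3% of all Nefl/Cntn5 cells of control 1 and 2. In CKO 1 and 2 the shares were 86.0% and 93.1%. Among all kept cells they were 89.0% and 91.5% in control 1 and 2 and 90.7% and 96.5% in CKO 1 and 2. Such UMIs were thus common throughout the libraries and not particular to Nefl/Cntn5 cells.

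The label of Purkinje cell rested mainly on Foxp2. Of the 198 cells, 189 had Foxp2 UMIs, and 148 passed the Purkinje gate with Foxp2 as the only one of its 3 genes. Calb1 was detected in 17.7%, Skor2 in 8.08% and Car8 in 25.8% of the cells, and 81 cells held at least 1 of them. In microglia of the same libraries, which should lack these genes, the shares were 0.771% for Calb1, 0 of 519 cells for Skor2, 1.16% for Car8 and 5.59% for Foxp2. Foxp2, Calb1 and Skor2 are gate genes, so their excess over microglia follows from the rule and carries no test. Car8 lies outside the rule. The microglia were not shallower, with median depths of 2477.5 to 4535 UMIs per library against 1493 to 3165 UMIs in Nefl/Cntn5 cells. Skor2 was not detected in control 2, where 13 cells were available. Purkinje genes outside the rule were also present: Ebf1, an early B-cell factor family regulator, in 88.4% of cells against 22.2% of microglia, Lhx1 in 51.5% against 5.59%, and the nuclear receptor Rora in 50% (99 of 198 cells) against 3.28%. Slc32a1, the vesicular GABA transporter, was detected in 30.3% of the cells against 7.32% of microglia, and Gad2, a GABA-synthesising enzyme, in 17.7% against 5.39%. Of these genes, Ebf1 (69.0%), Slc32a1 (40.9%) and Gad2 (16.6%) were also common in Pax2 interneurons and do not set Purkinje cells apart from them, whereas Rora (3.26%) and Lhx1 (18.5%) were less frequent there. Lhx5 was detected in 22.7% of Nefl/Cntn5 cells, 12.5% of microglia, 27.7% of all kept cells and 46.5% of Pax2 interneurons. For Gad1, also a GABA-synthesising enzyme, the shares were 12.6%, 4.82%, 13.9% and 26.3% in that order. Both were thus less frequent than in Pax2 interneurons. Slc17a6, the vesicular glutamate transporter of excitatory neurons, had a UMI in 1 of 198 cells. Sncg, a gene of brainstem and peripheral neurons that are rich in neurofilaments, was found in 2.02% of the cells and in 1.73% of microglia. Transcripts of the tdTomato reporter were detected in 50.5% of Nefl/Cntn5 cells and in 77.6% of microglia.

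**Figure D1:**
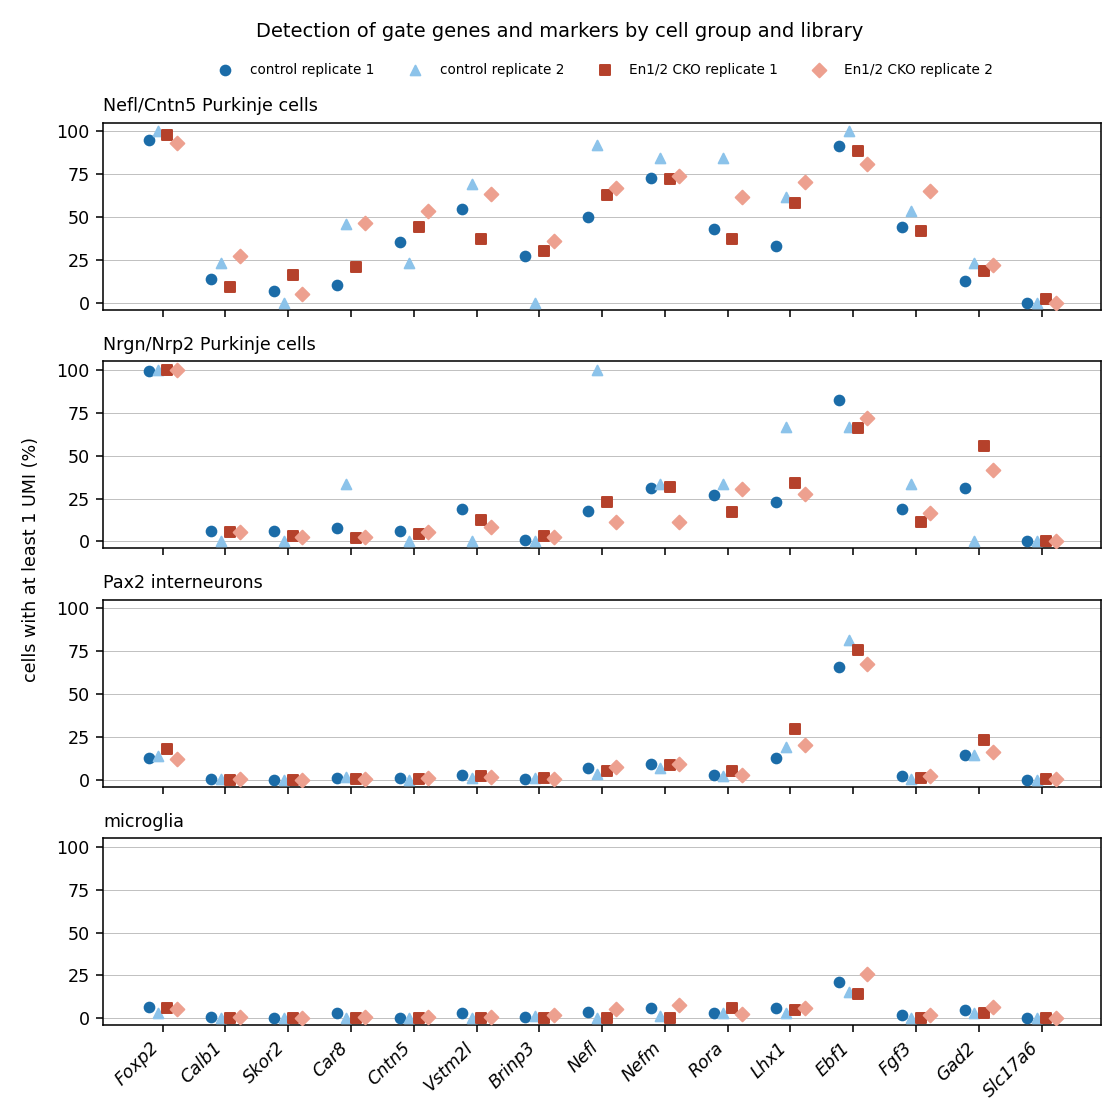
Percent of cells with at least 1 UMI (vertical axis) for 15 genes (horizontal axis) in Nefl/Cntn5 cells, Nrgn/Nrp2 Purkinje cells, Pax2 interneurons and microglia, with 1 point per library. Ebf1, Rora, Lhx1 and, by the rule, Foxp2 lie above the microglial points in Nefl/Cntn5 cells of every library, while Slc17a6 lies at or near 0 in all 4 panels.

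Among the 5 subtype genes, the neurofilament pair was seen most often. Nefm was detected in 73.7% and Nefl in 60.6% of the cells, Vstm2l in 54.5%, Cntn5 in 41.9% and Brinp3 in 28.8%, whereas no more than 5.78% of microglia had a UMI of any of them. These values follow from the rule and carry no test. Brinp3 varied most between libraries. It stood at 411 and 0 CPM in control 1 and 2 and at 381 and 307 CPM in CKO 1 and 2, absent from the 13 cells of control 2 and present in the other 3 libraries. Cntn5 stood at 299 and 88.6 CPM in control 1 and 2 and at 260 and 276 CPM in CKO 1 and 2. Nefl reached 548 and 1484 CPM in control 1 and 2 and 598 and 873 CPM in CKO 1 and 2, highest where Cntn5 and Brinp3 were lowest. Nefm was more even, at 1039 and 1440 CPM in the controls and 884 and 957 CPM in CKO. Vstm2l was at 703 and 377 CPM in the controls and 381 and 312 CPM in CKO.

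The cells met the subtype rule by different routes. UMIs of both the neurofilament pair and the trio Cntn5, Vstm2l and Brinp3 were present in 121 cells, 46 cells had neurofilament UMIs alone, and 31 had UMIs of the trio alone. At least 3 of the 5 genes were detected in 101 cells, and 30 cells had only 1. The median subtype UMI count was 5 and 12 in control 1 and 2 and 4 and 6 in CKO 1 and 2, with a highest value of 46. Gad2 differed between the routes, but its levels rested on few cells and the difference was not tested. In cells with neurofilament UMIs alone it stood at 171 and 242 CPM in control 1 and 2, from 23 and 4 cells. In CKO 1 and 2 it was at 158 and 180 CPM, from 12 and 7 cells. Where both kinds of UMI were present it was 56.6 and 37.0 CPM in the controls and 29.8 and 69.6 CPM in CKO, so the former were higher in each library. In cells with the trio alone Gad2 was at 191 CPM in CKO 1, from 8 cells, and listed at 0 in control 1, control 2 and CKO 2. Those zeros came from 15, 1 and 7 cells with 19848, 1569 and 6745 UMIs of all genes, so they set only a loose limit. Median depth differed between the routes as well: in CKO 2 it was 1332 UMIs in cells with neurofilament UMIs alone, 941 UMIs in cells with the trio alone and 4208 UMIs where both were present.

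Cells close to the threshold resembled those beyond it in part. The 33 cells just inside, with exactly 2 subtype UMIs, had 2577 CPM of Ebf1, 290 CPM of Lhx1 and 85.3 CPM of Gad2, summed over the libraries. The 73 cells just outside, with 1 subtype UMI, had 1463 CPM of Ebf1, 142 CPM of Lhx1 and 142 CPM of Gad2. For Gad2 the pooled order did not hold in every library: inside and outside cells had 373 and 0 CPM in control 2 and 54.3 and 25.5 CPM in CKO 2. Ties between the subtype genes and the Nrgn group admitted 16 cells, with 3647 CPM of Ebf1, and 23 cells lay just beyond that limit, with 4075 CPM. Other genes differed more there. Gad2 was at 31.2 CPM in the tied cells and 386 CPM beyond, and Car8 at 31.2 and 265 CPM. For Car8 the libraries went opposite ways, with 0 and 445 CPM in control 1 and 472 and 0 CPM in CKO 2, the last from 2 cells and 1 cell. Of the Purkinje gate itself, 83 cells had exactly 2 UMIs and 162 cells with otherwise fitting counts had 1.

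Nefl/Cntn5 cells made up 0.808% (exact Clopper-Pearson 95% interval 0.645% to 0.999%) of kept cells in control 1 and 1.10% (0.589% to 1.88%) in control 2. In CKO 1 they were 0.821% (0.595% to 1.10%) and in CKO 2 0.721% (0.548% to 0.931%). The intervals of all 4 libraries overlapped. The mean was 0.956% ± 0.210 in controls and 0.771% ± 0.0707 in CKO (SD, n = 2 libraries each), a difference within the spread between the controls (2-sided exact permutation test, p = 0.667, where 2 against 2 cannot go below 0.333). Because the gate needs UMIs, the share was repeated after each cell had been thinned to 1000 UMIs. It was then 0.578% and 0.789% in control 1 and 2 and 0.639% and 0.508% in CKO 1 and 2, with 2792 and 163 control cells and 1165 and 3321 CKO cells left out as shallower.

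Within the 754 Purkinje-gated cells, the Nefl/Cntn5 share was uneven between libraries of the same genotype. It was 25.8% (21.1% to 30.9%) in control 1 and 52.0% (31.3% to 72.2%) in control 2, where 25 cells passed the gate. In CKO 1 it was 17.8% (13.2% to 23.3%) and in CKO 2 35.8% (28.4% to 43.7%). The lowest and the third-lowest values thus belonged to CKO, with control 1 between them. The means, 38.9% ± 18.5 and 26.8% ± 12.7 (SD, n = 2 libraries each), did not differ beyond the spread between libraries (2-sided exact permutation test, p = 0.667). Without control 2 the difference changed sign, from -12.1 to 1.06 percentage points. After thinning the shares were 23.0% and 66.7% in control 1 and 2 and 23.2% and 35.8% in CKO 1 and 2, and the CKO 1 value was no longer below that of control 1.

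**Figure D2:**
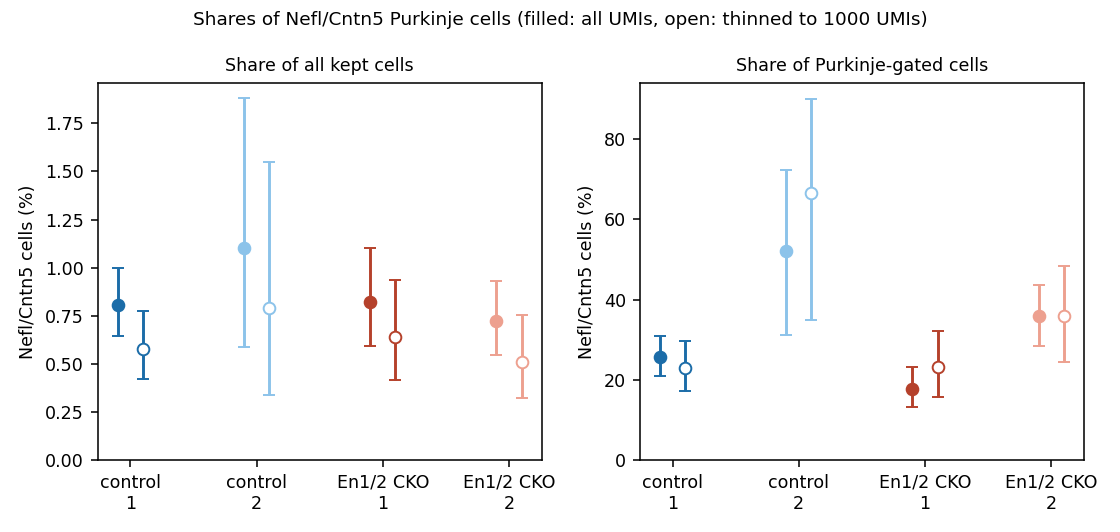
Nefl/Cntn5 cells as a percent of all kept cells (left) and of Purkinje-gated cells (right) in each library, with exact 95% intervals, from all UMIs (filled) and after thinning to 1000 UMIs (open). Intervals of the 4 libraries overlap on the left, and on the right the filled points run from 17.8% in CKO 1 to 52.0% in control 2.

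Nrgn/Nrp2 cells, the other subtype cut from the same gate, have at least 2 UMIs of Nrgn, Islr2, Adcyap1 and Nrp2 and more of these than of the Nefl/Cntn5 genes. They numbered 118 and 3 in control 1 and 2 and 88 and 36 in CKO 1 and 2. Comparing both subtypes within each library describes what else went with the chosen genes, and since the rule made this contrast no test was run. A gene was counted where the ratio with 10 CPM added was at least 1.5-fold in the same direction in all 4 libraries. Of 4698 genes with at least 50 CPM in the higher subtype, 52 (1.11%) were higher in Nefl/Cntn5 cells and 16 (0.341%) lower. Control 2 contributed 3 Nrgn/Nrp2 cells with 8169 UMIs, so that 0 there allows up to 367 CPM. Without control 2 the counts were 91 (2.08%) higher and 51 (1.17%) lower of 4365 genes.

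Fgf3, a secreted fibroblast growth factor, was among the genes higher in Nefl/Cntn5 cells. It stood at 479 and 576 CPM in Nefl/Cntn5 cells of control 1 and 2 and at 459 and 672 CPM in CKO 1 and 2. In Nrgn/Nrp2 cells it was at 166 CPM in control 1, 122 CPM in control 2 from a single UMI, 63.9 CPM in CKO 1 and 175 CPM in CKO 2. The ranges did not overlap. By cell, 44.0% and 53.8% of Nefl/Cntn5 cells of the controls and 41.9% and 65.5% of those of CKO had an Fgf3 UMI. In Nrgn/Nrp2 cells the shares were 18.6%, 33.3% (1 of 3 cells), 11.4% and 16.7% in control 1, control 2, CKO 1 and CKO 2. Purkinje-gated cells of neither subtype had 3.64% to 11.1%, and no library exceeded 2.28% in Pax2 interneurons or 2.1% in microglia. After thinning to 1000 UMIs, 45.5% and 50% of Nefl/Cntn5 cells of the controls and 38.5% and 58.3% of those of CKO kept an Fgf3 UMI.

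A few adhesion and guidance genes were higher in Nefl/Cntn5 cells. Epha4, a receptor for ephrins, was at 361 and 908 CPM in control 1 and 2 and 563 and 543 CPM in CKO 1 and 2, against 200 and 0 CPM and 91.9 and 238 CPM in Nrgn/Nrp2 cells. Ntm, the IgLON adhesion molecule neurotrimin, was at 896 and 1152 CPM in the controls and 754 and 752 CPM in CKO, against 585 and 367 CPM and 264 and 175 CPM. Both genes were higher in every library, with no overlap between the subtypes over all 8 values. Lsamp, of the same IgLON family, was at 168 and 88.6 CPM in the controls and 173 and 160 CPM in CKO, against 107 and 0 CPM and 71.9 and 95.2 CPM. Cdh8, a type II cadherin, was at 74.7 and 22.2 CPM in the controls and 104 and 49.0 CPM in CKO, against 14.6 and 0 CPM and 12 and 0 CPM. For Lsamp and Cdh8 the control 2 value was a few UMIs at most, 4 and 1, so the difference there lies within counting error. Of the list of contactins and adhesion genes, 2 of 17 measured members passed the 1.5-fold rule upward and none downward, with a median mean log2 ratio of 0.01 against 0.11 over all genes. In the cadherin list 1 of 14 members passed and in the axon guidance list 1 of 28, both upward, beside 1.11% higher and 0.341% lower over all genes. Without control 2, contactins and adhesion genes had 2 higher and 1 lower, cadherins 3 higher and 1 lower and axon guidance genes 1 higher and 2 lower. Ptprk, a receptor tyrosine phosphatase of the adhesion list, was lower in each library but not by 1.5-fold in control 1, at 87.1 and 22.2 CPM in the controls and 60.7 and 31.2 CPM in CKO against 102 and 122 CPM and 160 and 127 CPM in Nrgn/Nrp2 cells.

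Several genes had few or no UMIs in Nrgn/Nrp2 cells. Tmem132d, which encodes a single-pass membrane protein, stood at 74.7 and 88.6 CPM in the controls and 78.0 and 71.2 CPM in CKO, against 19.5 and 0 CPM and 0 and 15.9 CPM in Nrgn/Nrp2 cells. Its relative Tmem132c was at 68.4 and 88.6 CPM and 43.3 and 49.0 CPM, against 0 and 0 CPM and 7.99 and 0 CPM. Gm30382, an unnamed locus, was at 37.3 and 22.2 CPM in the controls and 165 and 93.5 CPM in CKO, against no UMI in Nrgn/Nrp2 cells of any library. St6galnac5, a sialyltransferase that builds gangliosides, was at 43.6 and 88.6 CPM and 78.0 and 44.5 CPM, against 4.87 and 0 CPM and 0 and 0 CPM. All 4 genes were higher in each library, although each rests on 4 to 21 UMIs per library in Nefl/Cntn5 cells, except for a single UMI of Gm30382 in control 2. Fign, Fblim1, Arhgdig and Fabp3 also passed the 1.5-fold rule in all 4 libraries, at levels of 17.3 to 177 CPM in Nefl/Cntn5 cells. Fblim1 did not pass without the 15 cells that carried other markers.

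Single genes of Purkinje maturation were higher in Nefl/Cntn5 cells. Of the Purkinje identity list, 2 of 27 measured members outside the rule passed the 1.5-fold rule upward, Cck and Kitl, and none downward. Over all genes the shares were 1.11% higher and 0.341% lower. The list's median mean log2 ratio was 0.72 with control 2 and -0.03 without it, against 0.11 and 0.03 over all genes, so the higher median rested on that library. Kitl encodes the ligand of the Kit receptor and stood at 149 and 465 CPM in the controls and 121 and 147 CPM in CKO, against 39.0 and 245 CPM and 24.0 and 0 CPM in Nrgn/Nrp2 cells. Cck, which encodes cholecystokinin, was at 62.2 and 44.3 CPM and 26.0 and 75.7 CPM, against 4.87 and 0 CPM and 4.00 and 0 CPM. Neither gene passed in all 4 libraries once the 15 cells with other markers were left out. The number of list members that passed was then still 2 upward and 0 downward. Rora was at 280 and 709 CPM in control 1 and 2 and 364 and 543 CPM in CKO 1 and 2, against 239 and 245 CPM and 112 and 175 CPM in Nrgn/Nrp2 cells. The subtypes did not overlap for Rora, yet its control 1 values differed by less than the spread between libraries of Nefl/Cntn5 cells. Mef2c, a MADS-box factor, was at 99.5 and 753 CPM in the controls and 156 and 249 CPM in CKO, against 39.0 and 245 CPM and 36.0 and 47.6 CPM. Mef2c also stood at 928 to 1743 CPM in microglia, and the part of free or microglial RNA in its level was not tested.

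**Figure D3:**
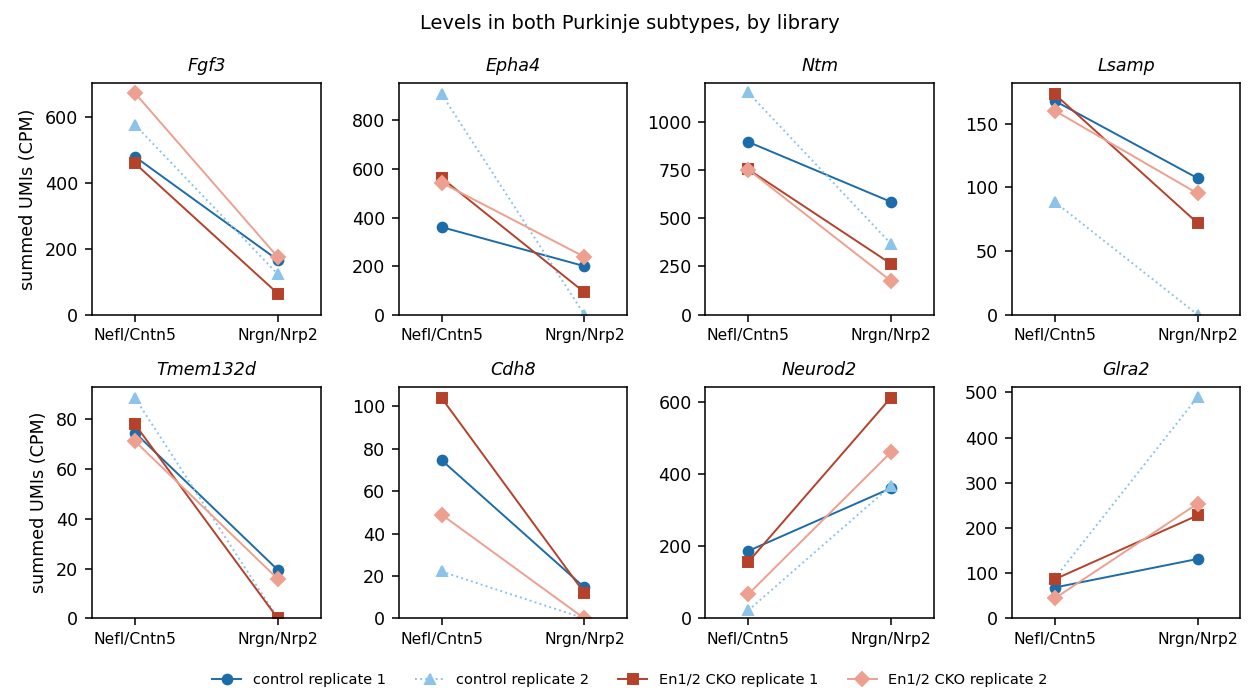
Summed UMI level in CPM (vertical axis, from 0) of 8 genes in Nefl/Cntn5 and Nrgn/Nrp2 cells (horizontal axis), with 1 line per library and control 2, with 3 Nrgn/Nrp2 cells, dotted. Fgf3, Epha4, Ntm, Lsamp, Tmem132d and Cdh8 slope downward and Neurod2 and Glra2 upward in all 4 libraries.

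Cell cycle genes appeared among the higher genes, in part from single cells. Top2a, a DNA topoisomerase of dividing cells, was at 68.4 and 111 CPM in the controls and 113 and 111 CPM in CKO, against 19.5 and 0 CPM and 24.0 and 15.9 CPM. In control 2 and in CKO 1 a single cell held 100% of its UMIs, and in CKO 2 a single cell held 48.0%. In control 1 its 11 UMIs were spread over 9 of 84 cells. In CKO 2 Mki67 or Top2a UMIs were found in 7 of 58 cells. Hist1h1b, a replication-dependent histone, followed with 149 and 88.6 CPM and 34.7 and 80.1 CPM, against 39.0 and 0 CPM and 4.00 and 0 CPM. Of the cell cycle list 5 of 17 measured members passed the 1.5-fold rule upward, beside 1.11% over all genes. None did without the 15 cells, some of which had been singled out by Mki67 and Top2a. Defining markers of vascular and meningeal cells (4 of 4) were at 0 in every library. A longer list of 11 such genes had 4 and 0 UMIs in control 1 and 2 and 2 UMIs in each CKO library. The 5 microglial genes used for the cut-off summed to 494 CPM in CKO 2, 98.2% of it from the 5 deepest cells, and to 0 to 8.67 CPM elsewhere. A longer list of 10 microglial genes summed to 43.6 and 0 CPM in control 1 and 2 and 17.3 and 721 CPM in CKO 1 and 2.

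Under the rule, 16 genes were lower in Nefl/Cntn5 than in Nrgn/Nrp2 cells. With Nefl and Nefm left out of the subtype genes, 52 were higher and 60 lower, so which direction holds more genes depends on that choice. Neurod2, a basic helix-loop-helix factor of differentiating neurons, was at 187 and 22.2 CPM in the controls and 156 and 66.8 CPM in CKO, against 361 and 367 CPM and 612 and 460 CPM in Nrgn/Nrp2 cells. Microglia held Neurod2 at 23.5 to 116 CPM, and the lower values in Nefl/Cntn5 cells lie in that range. Glra2, a glycine receptor subunit, was at 68.4 and 88.6 CPM in the controls and 86.7 and 44.5 CPM in CKO, against 132 and 490 CPM and 228 and 254 CPM. Mir99ahg, a long non-coding host transcript of microRNAs, was at 199 and 88.6 CPM and 199 and 142 CPM, against 375 and 612 CPM and 488 and 555 CPM. For these 3 genes the subtypes did not overlap. Rnd3, a small GTPase, and Gpc6, a glypican, were also lower in each library. Tll1, a protease of the tolloid family, was at 31.1 and 0 CPM in the controls and 0 and 13.4 CPM in CKO, against 107 and 245 CPM and 44.0 and 47.6 CPM. Gm26871 had 1 UMI in all Nefl/Cntn5 cells. Cnpy1, which lies beside En2 and acts in fibroblast growth factor signalling, was at 118 and 44.3 CPM in the controls and 69.3 and 62.3 CPM in CKO, against 229 and 122 CPM and 160 and 175 CPM. Gad2 was not lower in every library, since control 2 had no Gad2 UMI in its 3 Nrgn/Nrp2 cells. In the others it was at 87.1, 86.7 and 75.7 CPM in Nefl/Cntn5 cells of control 1, CKO 1 and CKO 2, against 239, 284 and 381 CPM.

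The next comparison asked how Nefl/Cntn5 cells of CKO embryos differed from those of controls. The targeted genes came first. En1 transcripts were at 156 and 0 CPM in control 1 and 2 and at 173 and 31.2 CPM in CKO 1 and 2, so the groups overlapped (log2 fold change -0.29, SE 0.74, edgeR adjusted p = 1.00). En2 was at 93.3 and 22.2 CPM in the controls and 34.7 and 31.2 CPM in CKO, also overlapping, and was too low to be tested. The labels do not say which exons are floxed, and 3' counts outside the deleted part would not show the deletion, so these values check neither the recombination nor the labels.

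In edgeR's quasi-likelihood test with Benjamini-Hochberg adjustment, none of 2979 genes outside the rule passed the threshold of 0.05 (0% higher and 0% lower). Before adjustment 43 genes (1.44%) had p under 0.05 and a higher level, and 43 (1.44%) a lower one. With 1 library left out, the test called 22 genes without control 1, 12 without control 2, 2 without CKO 1 and 0 without CKO 2. DESeq2 called 0 as well, and before adjustment 9 genes (0.302%) were higher and 7 (0.235%) lower. Without the 15 cells with other markers 2388 genes were tested, with 0 called, and before adjustment 21 were higher and 14 lower. Both CKO libraries lay above both controls in 500 genes (16.8%) and below both in 362 genes (12.2%), and the genes described next were the first of these by p. None of them passed with all 4 libraries, and the values describe these pools.

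Cntnap5a had the smallest p. It encodes a contactin-associated protein of the neurexin family and lies on chromosome 1 at 115684756 to 116587323 (GRCm38, plus strand). Nefl/Cntn5 cells held 535 and 354 CPM in control 1 and 2, from 86 and 16 UMIs, and 113 and 62.3 CPM in CKO 1 and 2, from 13 and 14 UMIs. Both CKO pools thus lay below both control pools. The means were 445 ± 128 CPM in controls and 87.5 ± 35.6 CPM in CKO (SD, n = 2 libraries each). The fitted log2 fold change was -2.49, its standard error (SE) 0.49 and the edgeR adjusted p 0.119, which did not pass. It passed without control 2 (log2 fold change -2.70, edgeR adjusted p = 3.15e-06), with the replicate number as a block (-2.38, edgeR adjusted p = 0.0042) and without the low-count filter (-2.36, edgeR adjusted p = 0.0262), and in the other alternatives it stayed lower in CKO with an adjusted p of 0.0640 to 1.00. By cell, 26 of 84 and 9 of 13 control cells had a UMI, 31.0% and 69.2%, and 6 of 43 and 10 of 58 CKO cells, 14.0% and 17.2%, against at most 0.962% of microglia. After thinning to 1000 UMIs the shares were 22.7% and 0% of 44 and 8 control cells and 3.85% and 16.7% of 26 and 24 CKO cells, and the groups overlapped. Without the 15 cells with other markers Cntnap5a stood at 587 and 394 CPM in the controls and 120.5 and 99.8 CPM in CKO (log2 fold change -2.25, SE 0.50, edgeR adjusted p = 0.999). In Nrgn/Nrp2 cells it was lower to begin with, at 146 and 0 CPM in the controls and 63.9 and 79.3 CPM in CKO. The difference between the 2 effects was -1.63 (SE 0.78) on the log2 scale and did not pass (edgeR interaction test, unadjusted p = 0.0369, adjusted p = 1). Since En1 also lies on chromosome 1 and only CKO embryos carried its floxed allele, DNA linked to that allele and the loss of Engrailed cannot be told apart for Cntnap5a.

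Cdh9, a type II cadherin, was at 243 and 88.6 CPM in control 1 and 2 and at 52.0 and 13.4 CPM in CKO 1 and 2 (log2 fold change -2.77, SE 0.66, edgeR adjusted p = 0.562). The values did not overlap, but they came from few cells: 13 and 1 in the controls and 1 and 2 in CKO. The only Cdh9 cells of control 2 and of CKO 1 were among the 15 with other markers, without which the levels were 261.5 and 0 CPM in the controls and 0 and 21.4 CPM in CKO, and overlapped. Olig1, a factor of the oligodendrocyte lineage, was at 24.9 and 88.6 CPM in the controls and 269 and 174 CPM in CKO (log2 fold change 2.31, SE 0.62, edgeR adjusted p = 0.923). Some of the 15 cells had been singled out by oligodendrocyte lineage genes, which fixes that Olig1 is lower without them. It was then at 14.1 and 0 CPM in the controls and 0 and 14.3 CPM in CKO. Without control 2 both genes passed in all cells (edgeR adjusted p = 3.76e-05 for Cdh9 and 0.00509 for Olig1).

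Ebf1, chosen from the Purkinje identity list, was at 3117 and 2636 CPM in control 1 and 2 and at 1742 and 1238 CPM in CKO 1 and 2. Both CKO pools were below both controls, with a log2 fold change of -0.99 (SE 0.45, edgeR adjusted p = 1.00). Leaving out the 15 cells brought the values closer, to 3294 and 2423 CPM in the controls and 1940 and 1838 CPM in CKO. Of the 22 tested members of that list outside the rule 6 were higher and 16 lower in CKO, none called, with a median log2 fold change of -0.23 against -0.02 over all genes tested. Without the 15 cells 11 were higher and 11 lower and the median was -0.02 against -0.01. Foxp2, which the rule used, was at 1350 and 2149 CPM in the controls and 1369 and 997 CPM in CKO.

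**Figure D4:**
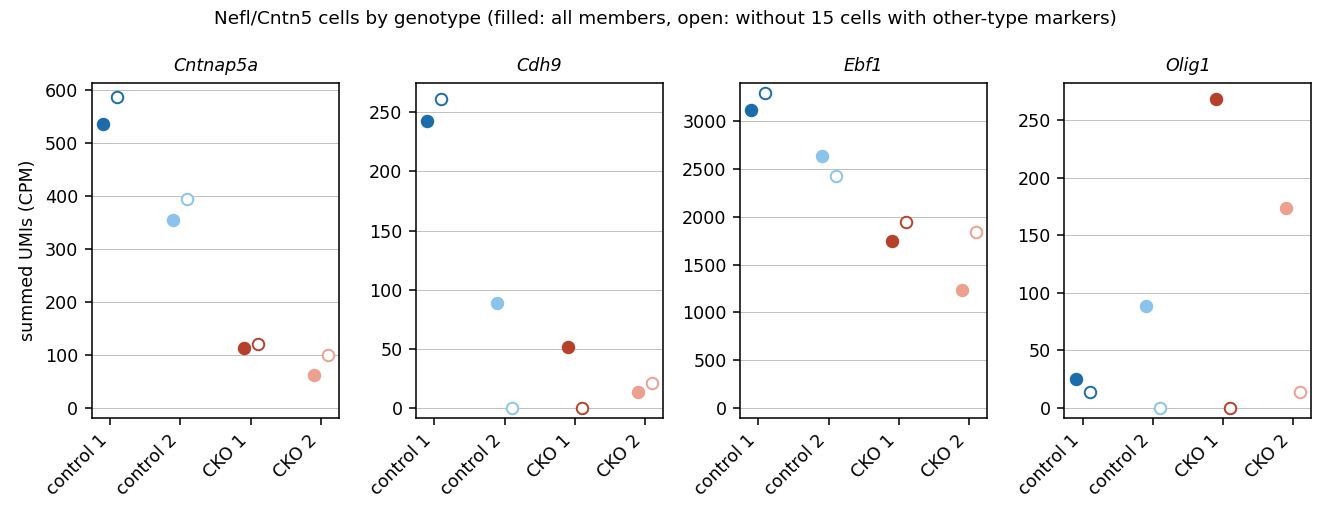
Summed UMI level in CPM (vertical axis, from 0) of Cntnap5a, Cdh9, Ebf1 and Olig1 in Nefl/Cntn5 cells of each library (horizontal axis), from all cells (filled) and without the 15 cells with markers of other types (open). Cntnap5a and Ebf1 stay lower in both CKO libraries without those cells, while the groups overlap for Cdh9 and, by construction, for Olig1, since oligodendrocyte lineage genes were used to choose those cells.

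Among the other genes lower in both CKO pools were Ncoa7, at 112 and 155 CPM in control 1 and 2 and 43.3 and 26.7 CPM in CKO 1 and 2, and Tnfrsf21, the death receptor DR6, at 118 and 177 CPM and 52.0 and 44.5 CPM. Ccnt2, a cyclin of transcriptional elongation, was at 311 and 266 CPM in the controls and 130 and 125 CPM in CKO. Atp1b1, the beta subunit of the sodium pump, was at 249 and 111 CPM in the controls and 95.3 and 71.2 CPM in CKO. Ccnt2 and Atp1b1 also lie on chromosome 1, and the reservation about linked DNA holds for them. Rspry1, Pdlim7, AC149090.1 and 1810026B05Rik completed the 10 genes of lowest p in this direction. Log2 fold changes of these genes ran from -1.94 for Ncoa7 to -1.23 for AC149090.1, and the edgeR adjusted p was 1.00 for each.

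In the other direction Eif4a1, a helicase of translation initiation, was at 212 and 244 CPM in control 1 and 2 and 641 and 459 CPM in CKO 1 and 2. Rnf121, a ubiquitin ligase, was at 49.8 and 66.5 CPM in the controls and 269 and 111 CPM in CKO. Cwc22, a splicing factor, was at 43.6 and 44.3 CPM in the controls and 303 and 89.0 CPM in CKO, with CKO 1 well above CKO 2. Gm10076, whose name gives no function, was at 49.8 and 0 CPM and 95.3 and 485 CPM, with CKO 2 standing alone, and it passed without control 1, without control 2 or without CKO 1. Ndufs3, Lxn, Timm10, AW047730 and Gm30382 completed the 10 genes in this direction, and the edgeR adjusted p was 0.631 for Gm10076, 0.923 for Olig1 and 1.00 for the other 8.

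Gene groups relevant to young Purkinje cells gave no call in any list. Over all genes tested the median log2 fold change was -0.02, and -0.01 without the 15 cells. Members of a list share the same 4 libraries, and their common direction was not tested. Of 16 tested synaptic genes 3 were higher and 13 lower in CKO, with a median log2 fold change of -0.30, and without the 15 cells 5 were higher and 11 lower, with a median of -0.14. Of 13 axon guidance genes 4 were higher and 9 lower, with a median of -0.22. All 9 tested bHLH and young interneuron genes were lower, with a median of -0.28, Neurod2 among them at -0.40 (SE 0.60), which turned to 2.22 without control 1. Neurofilament and axon growth genes divided evenly, 16 higher and 15 lower of 31, with a median of 0.00. Contactins and adhesion genes were 8 higher and 5 lower of 13, with a median of 0.12. Cadherins were 5 higher and 6 lower of 11, reelin and migration genes 3 higher and 6 lower of 9, and survival and cell death genes 4 higher and 4 lower of 8. Without the 15 cells several of these counts turned: reelin and migration genes were 5 higher and 3 lower, calcium signalling genes 7 higher and 4 lower, transmitter receptors 3 higher and 1 lower and ion channels 2 higher and 1 lower. Neurofilament and axon growth genes were then 21 higher and 10 lower, bHLH and young interneuron genes 1 higher and 5 lower, and axon guidance genes 2 higher and 8 lower. Transmitter receptors were 2 higher and 3 lower of 5. Ion channels were 2 higher and 4 lower of 6, with the sodium channel gene Scn8a at 131 and 88.6 CPM in the controls and 17.3 and 57.9 CPM in CKO (edgeR unadjusted p = 0.026). Calcium signalling genes were 4 higher and 8 lower of 12, with Pvalb, parvalbumin, at 268 and 22.2 CPM in the controls and 52.0 and 97.9 CPM in CKO, which overlapped.

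Markers of other cell types stood beside these differences, and their part in them was not tested. Of 11 tested radial progenitor and glial markers 10 were higher in CKO, with a median log2 fold change of 0.81 against -0.02 over all genes tested. Sox9, the gene of lowest p among them, was at 37.3 and 22.2 CPM in the controls and 113 and 97.9 CPM in CKO. The summed list stood at 4822 and 2193 CPM in control 1 and 2 and at 4515 and 7778 CPM in CKO 1 and 2, so the controls and CKO overlapped in total. Without the 15 cells, some of them singled out by Sox2, Sox9 and Hes5, 4 members were still tested and all 4 were lower, with a median of -0.31. Meis1, from the list of Engrailed, Pax and hindbrain genes, was at 37.3 and 44.3 CPM in the controls and 130 and 93.5 CPM in CKO, and that list had 4 of 8 members higher and 4 lower.

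Whether the CKO effect differed between both Purkinje subtypes was tested as an interaction over 8 sums, with the library as a block. Of 3858 genes outside the rule 1 was called (0.0259%) higher and 0 (0%) lower, and before adjustment 32 (0.829%) had a higher and 29 (0.752%) a lower value with p under 0.05. That gene was Hba-x, an embryonic haemoglobin chain of red blood cells, with an interaction of 3.32 (SE 0.71, edgeR adjusted p = 0.00651). In Nefl/Cntn5 cells Hba-x was at 286 and 0 CPM in control 1 and 2 and 260 and 71.2 CPM in CKO 1 and 2, and in Nrgn/Nrp2 cells at 1745 and 0 CPM and 91.9 and 127 CPM. The call rested on control 1, where 1 Nrgn/Nrp2 cell held 257 of 358 Hba-x UMIs. Without that cell the control 1 level was 497 CPM, the interaction 1.51 (SE 0.71, edgeR adjusted p = 1), and 0 genes were called. Hba-x was not called without control 1 or without either CKO library. Hba-x UMIs were found in 36.9%, 0%, 20.9% and 25.9% of Nefl/Cntn5 cells of control 1, control 2, CKO 1 and CKO 2 and in 47.1%, 0%, 18.8% and 19.2% of microglia, which do not make haemoglobin. The shares were at or below the microglial ones in the controls and a few points above them in CKO.

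The genes of next lowest p in that test did not pass. Car8 was at 87.1 and 222 CPM in Nefl/Cntn5 cells of control 1 and 2 and 113 and 214 CPM in CKO 1 and 2. In Nrgn/Nrp2 cells it was at 87.7 and 122 CPM in the controls and 7.99 and 15.9 CPM in CKO, lower in both CKO pools, and the interaction was 3.42 (SE 1.01, edgeR adjusted p = 0.530). The control 1 level in Nrgn/Nrp2 cells came 50% from 1 cell and the control 2 level from a single UMI. Cblb, a ubiquitin ligase, had an interaction of -3.36 (SE 0.94, edgeR adjusted p = 0.364) and was at 99.5 and 88.6 CPM in control and 52.0 and 40.1 CPM in CKO Nefl/Cntn5 cells, against 34.1 and 0 CPM and 148 and 159 CPM in Nrgn/Nrp2 cells. Olig1 (edgeR adjusted p = 0.110) and Hopx (edgeR adjusted p = 0.530) were the others, and both had their highest Nrgn/Nrp2 level in the 3 cells of control 2, at 367 and 2816 CPM. For Fgf3 the genotype difference in Nefl/Cntn5 cells was 0.10 (SE 0.42) on the log2 scale and the interaction 0.73 (SE 0.67), neither past the test.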

How the data were processed

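Raw UMI counts, not normalized, were deposited by the authors for each gene and barcode of 4 libraries of 10x 3' v3.1 chemistry. They were made with Cell Ranger 6.1.0 against mm10 with a TdTom sequence, per the submitters' processing notes and the file headers. Whether intron reads were counted is not given in the sources used here. The other files hold barcodes and gene identifiers as text.

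The members and the gene lists were chosen with earlier results of these data known. UMIs of the cells were summed per library, since cells are not replicates, and compared with edgeR 4.0.16 (quasi-likelihood test with TMM factors and filterByExpr, 2-sided, threshold 0.05 after Benjamini-Hochberg adjustment) in R 4.3.3. SEs come from the F statistics. The 13 rule genes were left out of counts of calls. Shares were compared with exact permutation tests. No doublets were removed by the rule. Scrublet (scanpy 1.11.5) marked 16 of the 198 cells, with the automatic threshold in control 2 and, elsewhere, the highest scores up to 0.8% per 1000 barcodes. Named genes were the rule genes, markers, En1, En2, up to 10 per direction by p with both CKO libraries beyond both controls and at least 20 CPM, up to 3 per list, 15 per direction between subtypes, and the 5 of lowest p in the interaction. Lhx1, Lhx5, Rora, Gad1, Gad2, Slc32a1, Sncg and Slc17a6 were added as label checks with their values known. GENCODE vM21 (GRCm38) gave the coordinates. DESeq2 1.42.0, other normalization, filters, thinning, gates and left-out libraries were alternatives. Leaving out cells over 10000 UMIs, cells with other markers (5 microglial genes at 3 or more UMIs, Mki67 and Top2a at 2, 4 oligodendrocyte genes at 2, or Sox2, Sox9 and Hes5 at 3) and cells with at least 100 Hba-x UMIs was added after seeing the data. The test was checked on simulated data, where it missed many changes. By genotype it recovered 56% of 4-fold and 79% of 8-fold changes, with 1 false call. The interaction test recovered 20% and 55%, with 4 false calls. A gene not called is therefore not shown to be unchanged.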

Additional observations from a re-analysis of the deposited data

Results flagged for a closer look

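The genotype effect on Hba-x differed between Nefl/Cntn5 and Nrgn/Nrp2 cells, with an interaction of 3.32 on the log2 scale (3.31731 before rounding, SE 0.71, edgeR adjusted p = 0.00651), and was picked out because the difference itself passed its test. In 1 Nrgn/Nrp2 cell of control 1 there were 257 Hba-x UMIs, and without it the interaction was 1.51 (edgeR adjusted p = 1).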

How the results depend on the processing

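Summed UMIs of 13 to 84 cells per library limit these results. For the genotype comparison 0 genes were called with RLE size factors, stricter cells, doublets removed, thinning, stricter gates, DESeq2 and each added alternative. Without the low-count filter 5 were called (C1qb, C1qa, Ndnf, Gm10076 and Cntnap5a). Leaving out a library gave 0 to 22 calls, 22 without control 1, 12 without control 2 (Cntnap5a, Cdh9, Olig1 and Gm10076 among them), 2 without CKO 1 and 0 without CKO 2. The lone library of a group was then taken to be as variable as the other group. Cntnap5a ran from -3.56 to -2.01 over all alternatives that tested it, with adjusted p from 3.15e-06 to 1.00. It was not tested after thinning.

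Same-numbered libraries deviated together with a correlation of 0.12, and 2 pairs cannot show a pairing. The replicate block gave 1 call, Cntnap5a (-2.38, SE 0.49, edgeR adjusted p = 0.0042).

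The interaction gave 0 calls without the low-count filter, with 1000 genes and 5% mitochondrial UMIs, after thinning, without cells with other markers and without Hba-x-rich cells, 2 with doublets removed (Hba-x, Fgf15) and 3 with Nefl and Nefm left out (Hba-x, Sfrp2, Hes5). With at least 4 Purkinje gate UMIs it gave 1, Pcp4 in place of Hba-x. Left-out libraries gave 0 to 3, with 3 without control 1 and 0 without either CKO library. The Nefl/Cntn5 share of Purkinje-gated cells ran from -25.2 to 1.06 percentage points with a library left out, positive without control 2, and that of kept cells from -0.333 to -0.0363.

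Genes higher in all libraries than in Nrgn/Nrp2 cells numbered 113 after thinning, 14 with 50 CPM added and 91 to 130 with a library left out. Genes lower numbered 32 with at least 3 subtype UMIs, 60 with Nefl and Nefm left out (with 52 higher), 25 with stricter cells, 6 with 50 CPM added and 51 to 97 with a library left out.

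Single genes changed direction in 26 of 819 values. En1 by genotype became 0.070 with at least 3 subtype UMIs, 0.28 with DESeq2 and 0.38 with the block, and ran from -1.68 to 6.54 with a library left out (0.73 without CKO 2). Its interaction became 0.66 with stricter cells, 0.15 with at least 3 subtype UMIs, and ran from -2.38 to 4.63 (1.57 without CKO 2). Neurod2 by genotype became 0.080 with the block and ran from -0.91 to 2.22 (0.27 without CKO 2). Glra2 became 0.25 with doublets removed, 0.025 without cells with other markers, and ran from -0.73 to 0.19, the last without CKO 2. Hba-x by genotype became 0.12 with DESeq2, 0.30 with the block, and ran from -1.29 to 7.29 (0.55 without CKO 2). Pvalb ran from -1.74 to 1.86, and the Hopx interaction from -0.47 to 10.5. The highest of these ranges came without control 1, except for Glra2, and the lowest Hopx value without control 2. Between subtypes, Cnpy1 became 0.83, Top2a -0.98 and Sox9 -0.79 after thinning, and Hist1h1b -0.28 and Top2a -1.06 with Nefl and Nefm left out. The cause was not tested.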
